A study of Mus musculus with 38 samples.

Results

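Granule cells are the principal neurons of the dentate gyrus, the input station of the hippocampus, and the genes described here are 10 markers of their identity and maturity. They were chosen by symbol from the 23420 genes counted in each library. The 6 mature markers are *Prox1*, *C1ql2*, *C1ql3*, *Dsp*, *Tdo2* and *Stxbp6*, and the 4 immature ones are *Dcx*, *Sox11*, *Neurod1* and *Igfbpl1*. Of the mature markers, *C1ql2* stood lower in the dVenus+ library than in the dVenus- library of all 12 fear conditioned mice, and so did *Stxbp6*, a pattern shown by 1.09% of all genes tested there. *Neurod1* was lower in 11 of 12. These 3 passed the test across all genes by 1 version of it and not by another, and *C1ql2* held in the most alternatives. In home cage mice *Dcx* had the higher value in the dVenus+ library of 3 of 3, from 2 to 19 counts per library and without passing the test. Every dVenus+ library lay above every dVenus- library there, as for 9.17% of the genes tested in these mice.

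Granule cells are added to the dentate gyrus throughout life. A new cell passes from a dividing progenitor to a neuroblast that switches on *Neurod1*, *Sox11* and *Dcx*. Transcripts such as *Dcx* are then lost as the cell extends its axon and joins the circuit. Meanwhile *Prox1*, the transcription factor that fixes granule cell fate, stays on, and mature markers such as *Calb1* and *C1ql2* come up. Since mature cells make up most of the layer, a pool of granule cells is normally rich in mature markers and poor in early ones such as *Dcx*.

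The mice were male *Arc*::dVenus animals on a C57BL/6J background, 8 to 12 weeks old, in which the *Arc* promoter drives the fluorescent protein dVenus, so dVenus+ means that the promoter had been active and not that a cell had been identified in another way. Fear conditioned mice (FC, 12 mice) received 3 tone and shock pairings, no shock mice (NS, 4 mice) went through the same session without shocks, and home cage mice (HC, 3 mice) never entered the chamber. FC and NS cells were taken 24 h after the session. From each mouse the contents of 10 dVenus+ and of 10 dVenus- cells were drawn by patch pipette from slices and each pool was sequenced as 1 library, so a value is a mean over 10 cells, and fewer cells expressing a gene cannot be told apart from less RNA per cell. All NS and HC libraries belong to a run series that holds no FC library, so training history and run series cannot be told apart in comparisons of level between FC and the other mice, whereas dVenus+ and dVenus- cells were compared inside the same mouse and the same run series.

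The 38 libraries held 1352288 to 18394761 counts on genes, with a median of 8013005. *Arc* checked the labels: its normalized level was at least 147 counts per 1000000 (CPM) in each dVenus+ library and at most 172 CPM in dVenus- libraries, and in each of the 19 mice the dVenus+ value was the larger. Normalized CPM are relative to the counts on genes of a library, scaled over the 38 libraries by the trimmed mean of M-values (TMM). The TMM factors were between 0.305 and 1.83, and the counts of mice given for *C1ql2*, *Stxbp6* and *Neurod1* in FC were the same without them. For other members they moved by 1: without them *C1ql3* was lower in dVenus+ cells of 10 of 12 FC mice, *Dcx* of 11 and *Sox11* of 9. In NS the count without them moved by 1 for *C1ql2* (2 of 4 mice lower), *Stxbp6* (4 of 4), *Dcx* (1 of 4) and *Sox11* (2 of 4).

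Most libraries held counts of most granule cell markers. With at least 10 counts taken as detection, *Stxbp6* and *Sox11* were detected in 37 of the 38 libraries, *Prox1* in 36, *C1ql2* and *C1ql3* in 35, *Neurod1* in 34, *Dsp* in 31, *Dcx* in 30, *Tdo2* in 14 and *Igfbpl1* in 6. All 12 FC dVenus- libraries had at least 5 of the 6 mature markers, and 10 of the 12 FC dVenus+ libraries had at least 3. The FC dVenus+ library of mouse 3, the shallowest with 1352288 counts, had 2 of the 6, and that of mouse 4 had 3. The FC dVenus+ library of mouse 5 stood apart, with 1 of the 10 members detected among 5266354 counts: it had 40 counts of *Dsp*, 1 of *Prox1* and 0 of *C1ql2*, *Sox11* and *Neurod1*. In the same library the summed level of 7 astrocyte genes was 1554 CPM, against a median of 259 CPM over the FC dVenus+ libraries, and that of 6 oligodendrocyte genes was 2020.35 CPM, against 480 CPM, while its *Arc* level was 705 CPM. Mouse 5 was not alone in its glial level: the oligodendrocyte sum was 2999 CPM in the FC dVenus+ library of mouse 14 and 4365 CPM in the FC dVenus- library of mouse 9, where the astrocyte sum was 2816 CPM. Outside FC such astrocyte sums were usual, at 1037 to 3237 CPM in NS dVenus+ and 1566 to 1720 CPM in HC dVenus+ libraries, which belong to another run series. The genes called in FC are therefore also given without mouse 5, and the 3 members among them without mice 9 and 14.

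**Figure D1:**
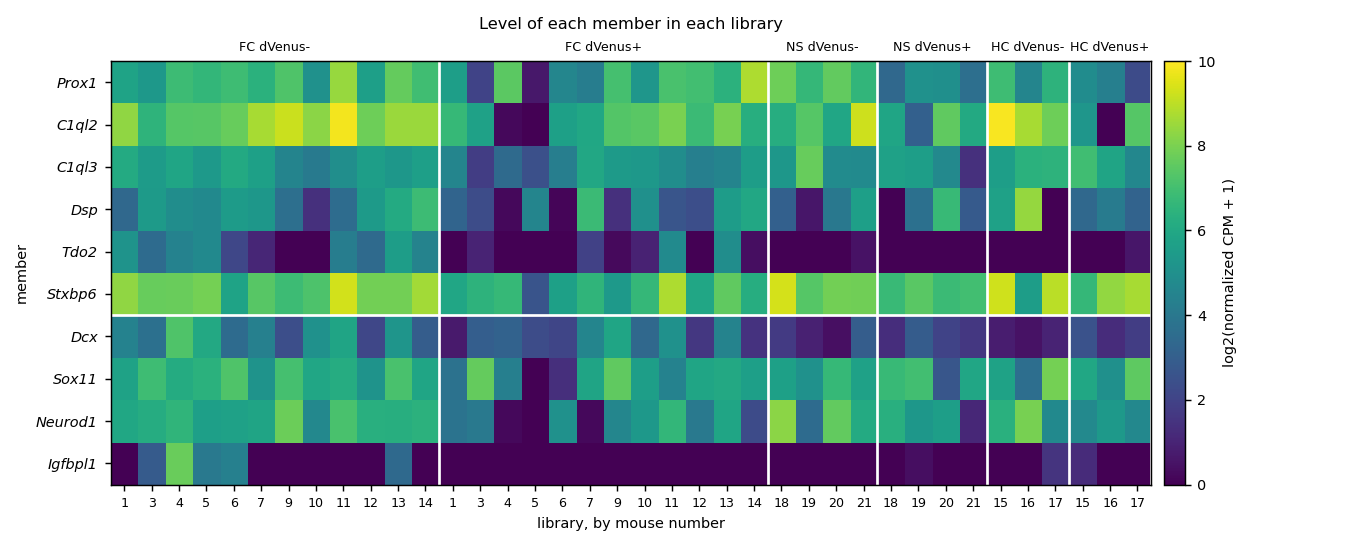
Level of each member (rows, mature above the white line) in each library (columns, by mouse number, grouped by training history and cell type), as log2(normalized CPM + 1). The column of mouse 5 among the FC dVenus+ libraries is dark for most members, *Tdo2* is bright in FC libraries only, and *Igfbpl1* is dark in all 12 FC dVenus+ libraries.

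Per kilobase of exon, the order of levels in FC dVenus- libraries ran from *C1ql2*, at 171 ± 111 CPM per kb (SD, n = 12), through *Stxbp6* at 46.5 ± 28.7 and *Neurod1* at 30.5 ± 18.3, to *C1ql3* at 17.5 ± 6.40, *Prox1* at 14.1 ± 10.6 and *Sox11* at 10.0 ± 4.85 CPM per kb. *Igfbpl1* followed at 6.73 ± 18.5, *Tdo2* at 4.10 ± 3.78, *Dsp* at 3.80 ± 3.25 and *Dcx* at 2.75 ± 3.31 CPM per kb. Each of these neighbours lay within 1 SD of the next except *C1ql2*, whose mean exceeded that of *Stxbp6* by more than its own SD. *Neurod1*, listed here as an immature marker, thus ranked above 4 of the 6 mature ones, and the neuroblast marker *Dcx* came last. At least 10 counts of *Neurod1* were found in all 12 of these libraries, and whether they came from mature or immature cells was not tested.

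Differences between dVenus+ and dVenus- cells were tested within mice by edgeR's quasi-likelihood test with the mouse as a block, and genes with an adjusted p (Benjamini-Hochberg) below 0.05 that also changed by more than 1 on the log2 scale are named called. In FC mice 9 of the 10 members passed the filter on low counts. Of these 9, 3 were called, all lower in dVenus+ cells: *C1ql2*, *Stxbp6* and *Neurod1*. Over all 9709 genes tested in FC, 4.37% were called, 2.85% lower and 1.51% higher in dVenus+ cells, and 17.7% had an unadjusted p under 0.05, as had 4 of the 9 members. This count depends on the version of the test: the 3 calls came from the newer quasi-likelihood method of edgeR, while the older one, the default of the version used here, called 0 of the 9 members and 1.41% of all genes, with 3 members at an unadjusted p under 0.05. DESeq2's Wald test called 4 members, *Tdo2* in addition, and 16.8% of all genes. Over 25 alternative fits *C1ql2* was called in 20, *Neurod1* in 6 and *Stxbp6* in 5. The log2 fold changes of all 9 members tested were below 0, as were 54.1% of those of all genes, and their median was -1.36, against -0.11 over all genes.

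**Figure D2:**
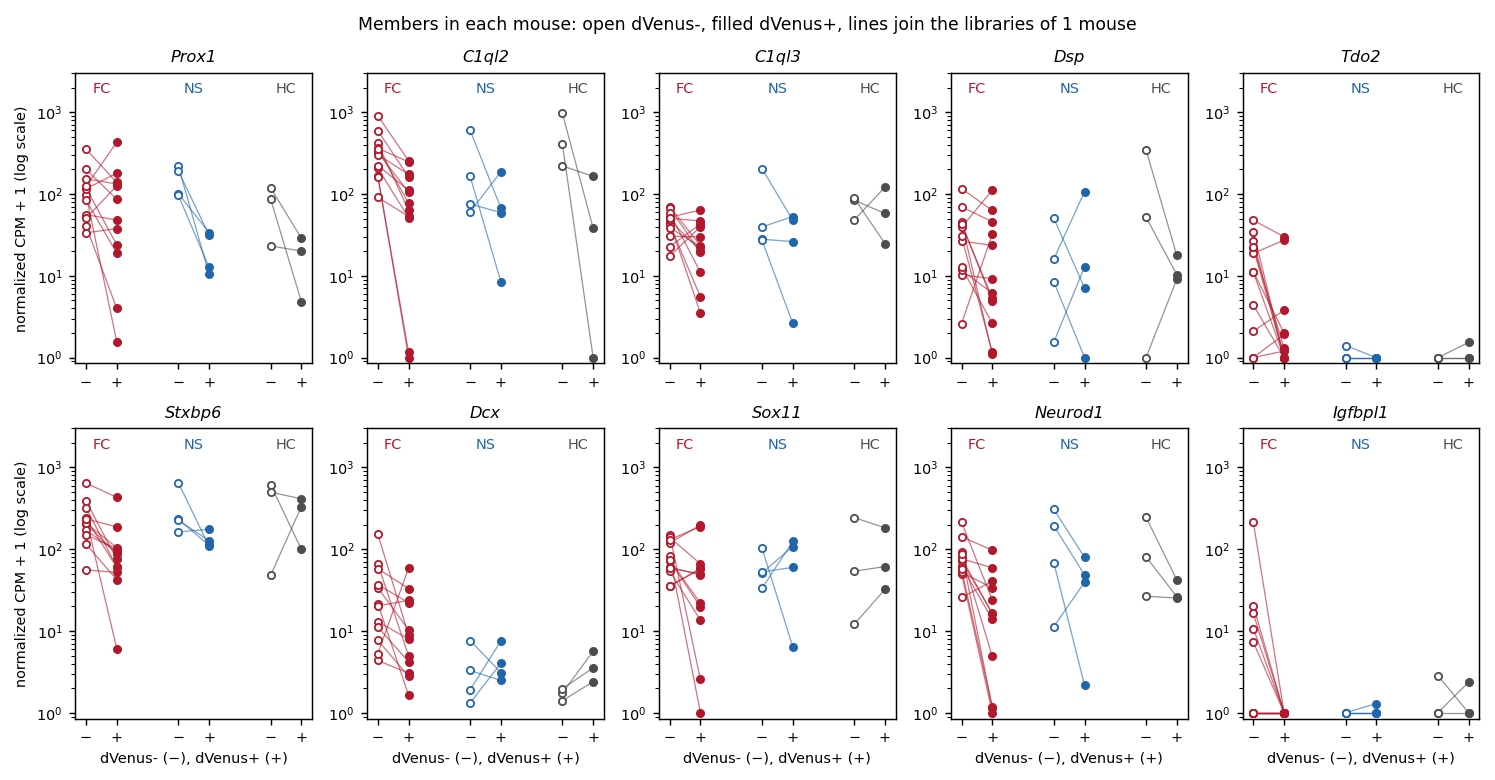
Normalized CPM + 1 (log scale) of each member in each library, with open points for dVenus- and filled points for dVenus+ libraries, lines joining the libraries of 1 mouse, and FC, NS and HC mice from left to right in each panel. In FC mice every line of *C1ql2* and *Stxbp6* falls, and 11 of 12 fall for *Neurod1*.

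*C1ql2* (chr1:120340582-120343174, + strand, GRCm38.p6) encodes a secreted C1q-like protein that granule cells release at their mossy fibre synapses. In FC dVenus+ libraries its lowest, median and highest levels were 0, 90.3 and 254 normalized CPM, and in FC dVenus- libraries 90.0, 313 and 904 normalized CPM. It was lower in the dVenus+ library of 12 of 12 mice, although the ranges of the groups overlapped, and 1.09% of all genes tested in FC were lower in every mouse. The means were 107 ± 85.4 against 342 ± 223 CPM (SD, n = 12), and the log2 fold change was -2.02 (SE 0.48, 95% confidence interval -3.00 to -1.05, adjusted p = 0.0124, edgeR). Without mouse 5 it was -1.83 (adjusted p = 0.0124), and it stayed called without mouse 9 or mouse 14. Within the run series of mice 9 to 14, of mice 4 to 7 and of mice 1 and 3, it was -1.38, -3.98 and -1.19, with adjusted p of 0.153, 0.229 and 0.611.

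*Stxbp6* (chr12:44852484-45075118, - strand), also called amisyn, encodes a SNARE-binding protein that regulates vesicle exocytosis. Its lowest, median and highest levels were 5.07, 80.8 and 430.02 normalized CPM in FC dVenus+ and 54.8, 221 and 641 normalized CPM in FC dVenus- libraries. As with *C1ql2*, the ranges overlapped, yet the dVenus+ library was the lower one in 12 of 12 mice. The means were 108 ± 111 and 246 ± 152 CPM (SD, n = 12), with a log2 fold change of -1.36 (SE 0.39, 95% confidence interval -2.16 to -0.55, adjusted p = 0.0432, edgeR). This adjusted p lay close to the threshold: without mouse 5 it was 0.0494, and leaving out each of the 12 mice in turn kept the call in 3 fits and lost it in 9, those without mouse 9 (0.0653) and mouse 14 (0.0763) among them. The log2 fold change within the 3 run series was -1.21 in mice 9 to 14, -1.43 in mice 4 to 7 and -1.79 in mice 1 and 3, with no call in any.

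*Neurod1* (chr2:79452637-79456636, - strand) encodes a basic helix-loop-helix transcription factor needed for granule cell differentiation, which binds E boxes. Its lowest, median and highest levels were 0, 15.4 and 96.6 normalized CPM in FC dVenus+ libraries, and 24.7, 73.7 and 213 normalized CPM in FC dVenus- libraries. Mice 4, 5 and 7 had at most 1 count in their dVenus+ library, and mouse 10 was the only one of 12 with the higher value in dVenus+ cells, at 39.4 against 24.7 CPM. The dVenus- library of mouse 10 also had the highest summed level of interneuron genes among the FC libraries, 2484 CPM. The log2 fold change of *Neurod1* was -2.34 (SE 0.68, 95% confidence interval -3.72 to -0.96, adjusted p = 0.0424, edgeR). Without mouse 5 it was -2.15 with an adjusted p of 0.0562, and without mice 4 and 7 it was -1.81 with an adjusted p of 0.109, so the call was lost in both. Leaving out each mouse in turn kept it in 4 of 12 fits, and not in those without mouse 9 (adjusted p = 0.0813) or mouse 14 (adjusted p = 0.0743). Within the run series it was -1.54 in mice 9 to 14, -4.34 in mice 4 to 7 and -2.20 in mice 1 and 3, with no call in any.

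**Figure D3:**
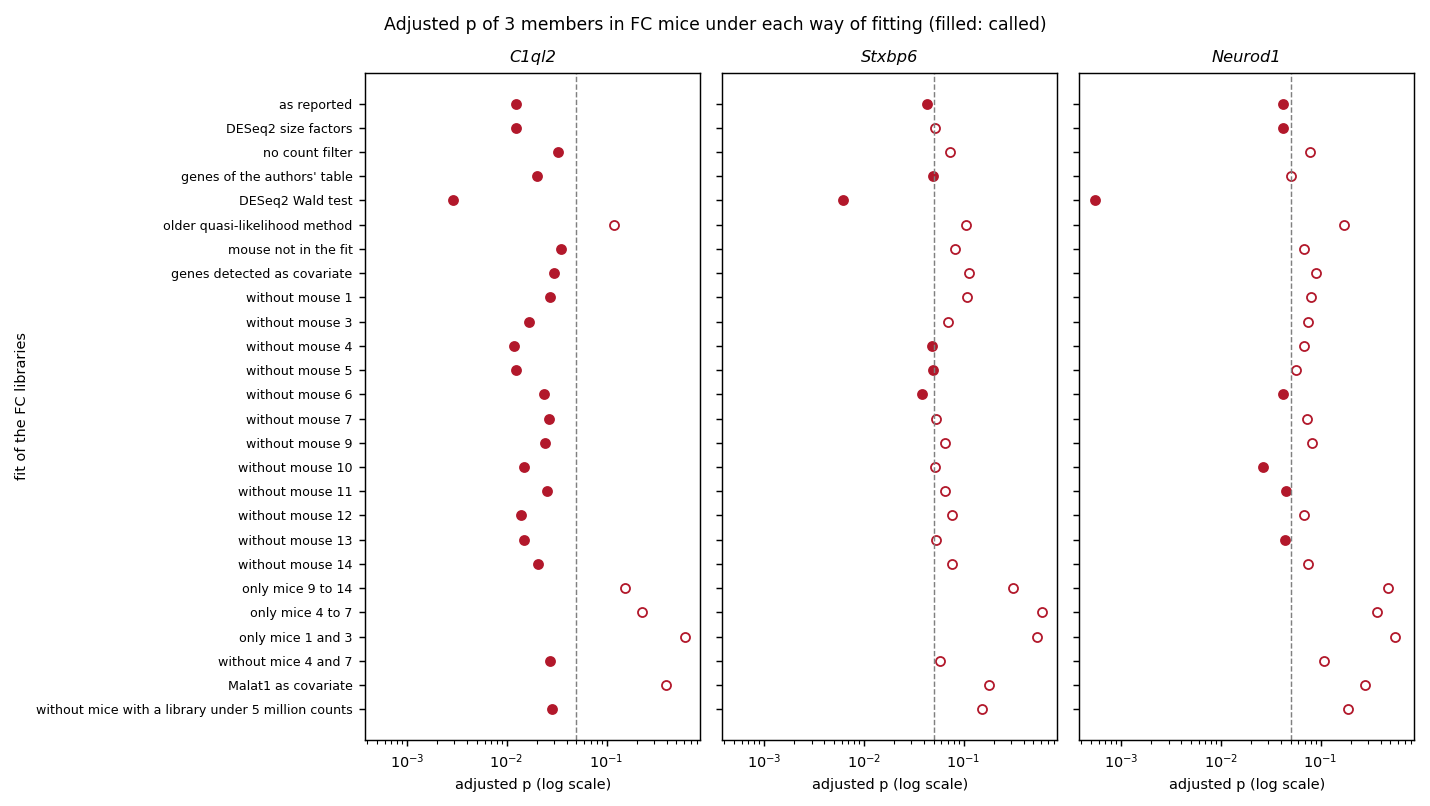
Adjusted p (log scale) of *C1ql2*, *Stxbp6* and *Neurod1* in FC mice in each fit (rows), with filled points where the gene was called and the dashed line at 0.05. *C1ql2* is called in all 12 fits that leave out a mouse, *Stxbp6* in 3 and *Neurod1* in 4, and none of the 3 within a single run series, by the older method or with *Malat1* as a covariate.

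The windows just upstream of the start of these 3 genes are shown because the genes were called in the same direction. RefSeq (GRCm38.p6) gave such a window for 9 of the 10 members. Each of the 3 runs 250 bases, 5′ to 3′ on the strand of the gene and up to its start, with capitals marking E boxes, the CANNTG motif that basic helix-loop-helix factors such as Neurod1 bind. For *Stxbp6* the start is an internal one, downstream of the outermost end of the gene. The positions are chr1:120340332-120340581 for *C1ql2*, chr12:45074484-45074733 for *Stxbp6* and chr2:79456637-79456886 for *Neurod1*.
C1ql2: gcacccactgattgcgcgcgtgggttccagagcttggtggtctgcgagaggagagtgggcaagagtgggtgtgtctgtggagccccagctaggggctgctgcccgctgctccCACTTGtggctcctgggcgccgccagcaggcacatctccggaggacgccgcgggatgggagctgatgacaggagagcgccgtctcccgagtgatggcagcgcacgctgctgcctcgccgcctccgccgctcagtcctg
Stxbp6: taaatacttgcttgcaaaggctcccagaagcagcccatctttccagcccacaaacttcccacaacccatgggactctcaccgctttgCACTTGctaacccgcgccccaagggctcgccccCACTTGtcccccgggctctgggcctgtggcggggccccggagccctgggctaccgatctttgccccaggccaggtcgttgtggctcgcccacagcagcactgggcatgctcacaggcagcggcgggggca
Neurod1: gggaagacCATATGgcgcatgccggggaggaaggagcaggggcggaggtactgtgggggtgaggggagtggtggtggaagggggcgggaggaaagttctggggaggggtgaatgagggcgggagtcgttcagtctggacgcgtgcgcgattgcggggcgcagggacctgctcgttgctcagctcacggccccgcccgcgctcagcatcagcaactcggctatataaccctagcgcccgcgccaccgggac
*Stxbp6* had 2 E boxes, and *C1ql2* and *Neurod1* had 1 each. Of the 32851 windows of this length in the RefSeq table, 66.2% hold at least 1 such motif on either strand, so its presence does not set these genes apart. The cyclic AMP response half-site TGACG, searched on both strands, was in 0 of the windows of the 9 members and in 17.8% of all windows. A match is a run of letters and no measure of binding.

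The other mature markers were lower in most FC mice, but their differences did not pass the test. *Prox1* (chr1:190118035-190170827, - strand) had a lowest, median and highest level of 0.563, 66.1 and 430.27 normalized CPM in FC dVenus+ libraries and of 32.5, 106 and 352 CPM in FC dVenus- libraries. It was lower in dVenus+ cells in 8 of 12 mice, with overlapping ranges and a log2 fold change of -0.77 (SE 0.53, 95% confidence interval -1.85 to 0.31, adjusted p = 0.477, edgeR). Without mouse 5 it was -0.53. Its direction was not stable: within mice 9 to 14 the log2 fold change was 0.067, and with the *Malat1* level as a covariate 0.24. Reads of *Prox1* may include those of *Prox1os*, an antisense gene that the counting did not list under this symbol, since the use of strand is not given in the sources used here.

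*C1ql3* (chr2:13001887-13010864, - strand) encodes a paralog of C1ql2 found at the same synapse. Its level was 26.4 ± 18.1 normalized CPM in FC dVenus+ and 44.3 ± 16.2 in FC dVenus- libraries (SD, n = 12), lower in 9 of 12 mice, with a log2 fold change of -0.86 (SE 0.58, adjusted p = 0.470, edgeR) and -0.73 without mouse 5. Its end overlaps that of *Pter*, which was counted too. *Dsp* (chr13:38151294-38198577, + strand) encodes desmoplakin, a desmosomal plaque protein that serves as a granule cell marker in the hippocampus. It was lower in dVenus+ cells of 10 of 12 FC mice, with medians of 6.68 against 33.7 normalized CPM and a log2 fold change of -1.24 (SE 0.79, adjusted p = 0.440), and -1.33 without mouse 5. The 2 exceptions were mice 7 and 10, and the highest *Dsp* value among FC dVenus+ libraries, 111 CPM in mouse 7, nearly matched the highest among dVenus- libraries, 116 CPM.

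*Tdo2* (chr3:81958412-81975728, - strand) encodes tryptophan 2,3-dioxygenase, an enzyme of tryptophan breakdown known in the brain as a marker of mature granule cells. At least 10 counts of it were found in 4 of the FC dVenus+ and 10 of the FC dVenus- libraries, against 0 of the 14 NS and HC libraries. In those 14, all counts together came to 5 in NS dVenus- and 4 in HC dVenus+ cells. Run series and training history cannot be told apart here, and the share of all genes with such a pattern was not counted. Within FC it was lower in dVenus+ cells of 8 mice and higher in 4, with medians of 0.251 and 14.0 normalized CPM. The log2 fold change was -2.34 (SE 1.02, 95% confidence interval -4.42 to -0.26, unadjusted p = 0.0282, adjusted p = 0.210, edgeR), and DESeq2's Wald test put it at -4.09 with an adjusted p of 0.00607. Without mouse 5 edgeR gave -2.09. The dVenus+ libraries split into 2, of mice 11 and 13, with 26.4 and 29.0 CPM, and 10 at or below 2.81 CPM.

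Among the immature markers, *Dcx* (chrX:143855842-143933396, - strand) encodes doublecortin, a microtubule-associated protein of migrating neuroblasts. Its lowest, median and highest levels were 0.632, 7.43 and 58.0 normalized CPM in FC dVenus+ and 3.36, 19.9 and 151 CPM in FC dVenus- libraries. It was lower in dVenus+ cells in 10 of 12 FC mice, with a log2 fold change of -1.37 (SE 0.71, 95% confidence interval -2.82 to 0.08, adjusted p = 0.314, edgeR), and -1.18 without mouse 5. *Sox11* (chr12:27334268-27342718, - strand), a SoxC transcription factor of immature neurons, had levels of 59.5 ± 66.1 and 83.3 ± 40.3 normalized CPM in FC dVenus+ and dVenus- libraries (SD, n = 12). It was lower in dVenus+ cells in 8 of 12 mice and its log2 fold change was -0.98 (SE 0.59, adjusted p = 0.408), or -0.77 without mouse 5. Mice 3, 7, 9 and 12 went the other way, and the dVenus+ libraries of mice 3 and 9, at 198 and 187 CPM, held the 2 highest *Sox11* values of the FC libraries.

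*Igfbpl1* (chr4:45809507-45826827, - strand), an insulin-like growth factor binding protein-like gene that marks neuroblasts, was under the filter on low counts in every group. It had 0 counts in each of the 12 FC dVenus+ libraries. Among the FC dVenus- libraries it had 2556 counts in mouse 4, 229 in mouse 6, 211 in mouse 5, 114 in mouse 13 and 29 in mouse 3, and 0 counts in the other 7. Pooled over mice, the FC dVenus- level was 761-fold a floor of 3 counts over all the FC dVenus+ libraries. Without mouse 4, which carried most of the counts, it was 143-fold. These ratios take reads as independent, which reads amplified from 10 cells are not, so they are no lower bound. They also leave out the spread between mice: 5 mice had the transcript in 1 pool of 10 cells and 7 had it in neither. The share of all genes with such a pattern was not counted. Without a filter the adjusted p of *Igfbpl1* was 0.0823 (edgeR). The dVenus- library of mouse 4 also had the highest *Dcx* level of all, 151 CPM. *Igfbpl1* reads may include those of the overlapping gene *Stra6l*, which the counting did not list under this symbol.

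In NS mice 8 of the 10 members passed the filter, all but *Tdo2* and *Igfbpl1*. edgeR called 0 of the 8, where 0.0489% of all genes were called, and 1 member, *Prox1*, had an unadjusted p under 0.05, as had 8.82% of all genes. The older quasi-likelihood method called 0 members and 0% of all genes, and DESeq2's Wald test called 1 member, *Prox1*, and 8.13% of all genes. The log2 fold changes of 5 of the 8 members and of 48% of all genes were below 0, with medians of -1.11 and 0.08. *Prox1* was 9.44, 32.8, 30.5 and 11.7 normalized CPM in the dVenus+ libraries of mice 18, 19, 20 and 21, and 220, 100.3, 192 and 95.8 CPM in their dVenus- libraries. Every dVenus+ library lay below every dVenus- library, a pattern seen in 2.85% of the genes tested in NS (7.66% were lower in every mouse), and the log2 fold change was -2.94 (SE 1.14, 95% confidence interval -5.26 to -0.63, adjusted p = 0.484, edgeR).

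The genes called in FC were also lower on average in NS, without passing the test. *C1ql2* was 58.3, 7.45, 186 and 66.4 CPM in the NS dVenus+ libraries of mice 18 to 21, and 74.6, 164, 59.4 and 602 CPM in the dVenus- libraries. It was higher in dVenus+ cells in mouse 20 and lower in the other 3, and its log2 fold change was -1.49 (SE 1.17, 95% confidence interval -3.86 to 0.87). *Stxbp6* had a log2 fold change of -1.10 (SE 0.84) and *Neurod1* of -1.75 (SE 1.23), each lower in 3 of 4 mice. Both *Dcx*, at 0.48 (SE 1.06), and *Sox11*, at 0.13 (SE 1.29), had values above 0 in NS, with confidence intervals of -1.66 to 2.62 and -2.49 to 2.75 that span changes of either sign. *Dsp*, at 0.09 (SE 1.97), was higher in 2 of 4 mice and its sign turned in 5 of 11 alternatives.

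In HC mice the same 8 members were tested and edgeR called 0 of them, as it called 0% of all genes, with 1 member, *C1ql2*, at an unadjusted p under 0.05 beside 7.33% of all genes. The older method called 0 of the 8 members and 0.0264% of all genes, and DESeq2 0 members and 8.24%. Below 0 were the log2 fold changes of 6 of the 8 members and of 49.7% of all genes, with medians of -1.05 and 0.02. *C1ql2* was 37.3, 0 and 163 CPM in the dVenus+ libraries of mice 15, 16 and 17 and 968, 408 and 220 CPM in their dVenus- libraries. The groups did not overlap, as for 5.92% of the genes tested in HC, and the log2 fold change was -4.22 (SE 1.65, 95% confidence interval -7.82 to -0.62, adjusted p = 0.623, edgeR). *Dcx* ran the other way: its 4.67, 1.40 and 2.52 CPM in dVenus+ libraries all exceeded the 0.742, 0.403 and 0.974 CPM in dVenus- libraries. Such a pattern was seen in 9.17% of the genes tested in HC. These values come from 2 to 19 counts per library, and the log2 fold change was 1.82 (SE 0.86, 95% confidence interval -0.03 to 3.67, adjusted p = 0.679). *Prox1* and *Neurod1* were lower in dVenus+ cells of 3 of 3 HC mice, as were 12.3% of the genes tested, with log2 fold changes of -2.40 (SE 1.71) and -1.59 (SE 1.40).

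**Figure D4:**
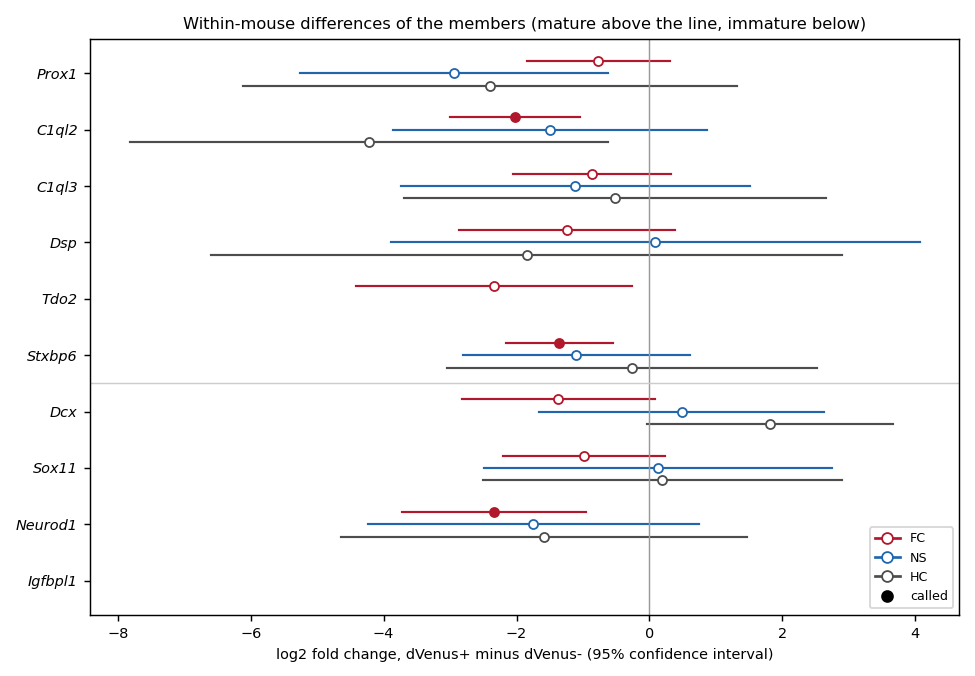
Log2 fold change of each member, dVenus+ minus dVenus-, with its 95% confidence interval in FC, NS and HC mice (edgeR). Filled points were called, which holds for *C1ql2*, *Stxbp6* and *Neurod1* in FC only, and members under the count filter of a group are left out.

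Whether the dVenus+ against dVenus- difference itself depended on training history was tested in 1 fit of all 38 libraries. Of the 10 members, all tested there, edgeR called 0 between FC and NS and 0 between FC and HC, with 0 at an unadjusted p under 0.05 in both, beside 0% of all genes called and 8.14% and 9.26% at an unadjusted p under 0.05. DESeq2 called 0 members in either, with 1 and 2 members at an unadjusted p under 0.05, whereas over all genes it called 8.47% and 11.2% and put 19.6% and 21.4% at an unadjusted p under 0.05. The smallest p values were those of *Prox1* between FC and NS, where the FC difference was 2.15 above that of NS on the log2 scale (SE 1.09, unadjusted p = 0.0578, adjusted p = 0.624), and of *Dcx* between FC and HC, where the FC difference minus that of HC was -3.37 (SE 1.90, unadjusted p = 0.0852, adjusted p = 0.573). For *C1ql2* the FC difference minus the NS one was -0.51 (SE 1.33) and minus the HC one 1.98 (SE 1.59). With these errors, the calls in FC and their lack in NS and HC do not show that the groups differ.

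The dVenus- medians of *Dcx* were 19.9, 1.60 and 0.742 normalized CPM in FC, NS and HC, and the dVenus+ medians 7.43, 2.57 and 2.52 CPM, where FC ran from 0.632 to 58.0 CPM and spanned the values of NS and HC. *Sox11* had dVenus- medians of 71.9, 51.1 and 52.8 CPM. These levels were not tested between groups. Run series and training history cannot be told apart for these levels.

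Other genes of granule cell maturity had mostly lower values in dVenus+ cells too. All 8 further mature granule cell genes were tested in FC, of which 3 were called lower and 0 higher, and 7 of the 8 had log2 fold changes below 0, with a median of -1.83. The clearest was *Calb1*, which encodes the calcium buffer calbindin and marks fully mature granule cells. It fell in 12 of 12 FC mice, with 73.7 ± 95.02 CPM in dVenus+ against 340.1 ± 166 CPM in dVenus- libraries (SD, n = 12), with a log2 fold change of -3.01 (SE 0.50, adjusted p = 0.000509, edgeR). *Plk5*, a granule cell-enriched member of the polo-like kinase family, was at -3.23 (SE 0.93, adjusted p = 0.0400), and *Rfx3*, a transcription factor of ciliated cells and neurons, at -1.53 (SE 0.44, adjusted p = 0.0419). The calls of *Plk5* and *Rfx3* were lost in 8 and 9 of the 12 fits without 1 mouse, that of *Calb1* in 0, and by the older method *Calb1* alone of the 3 was called (adjusted p = 0.0100). Without mouse 5 *Calb1* was called at -2.93 (adjusted p = 0.00137), and *Plk5* (adjusted p = 0.0641) and *Rfx3* (adjusted p = 0.0661) were not. In NS and HC 7 of these 8 genes were tested and 0 were called by edgeR, with medians of -2.95 and -1.89. *Calb1* was lower in dVenus+ cells of 4 of 4 NS mice, at -4.51 (SE 1.07, adjusted p = 0.0896), and of 1 of 3 HC mice, at -0.85 (SE 1.30).

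Markers of earlier stages were sparse. Of 8 neuroblast and immature neuron genes, 3 passed the filter in FC and 0 were called, with 2 below 0 and a median of -0.04. In NS and HC 5 of the 8 were tested and 0 called by edgeR, 3 of the 5 lying above 0 in each, with medians of 0.84 and 1.42. *Stmn1*, a microtubule destabilizer also expressed in mature neurons, was at -1.10 (SE 0.41, adjusted p = 0.128) and lower in 11 of 12 FC mice. *Gap43*, the growth cone protein, was at 2.16 (SE 1.05, adjusted p = 0.278) and higher in dVenus+ cells of 9 of 12 FC and 4 of 4 NS mice. Of 8 stem and cycling cell genes only *Mki67*, the proliferation marker, passed the filter in FC, at 2.03 (SE 0.80, adjusted p = 0.155). In 9 of 12 FC, 2 of 4 NS and 3 of 3 HC mice the dVenus+ library had the larger sum over the 8.

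Of the 9 genes that encode binding partners of the members or act beside them, 8 were tested in FC and 1 was called. This was *Nrxn3*, a presynaptic neurexin that C1ql2 and C1ql3 bind, and it was called higher. *Nrxn3* averaged 219 ± 190 CPM in dVenus+ and 37.6 ± 32.5 CPM in dVenus- libraries (SD, n = 12), higher in 12 of 12 FC mice, with a log2 fold change of 2.74 (SE 0.50, adjusted p = 0.00130, edgeR), opposite in sign to that of *C1ql2*. It was also called by the older method (adjusted p = 0.0115) and without mouse 5, at 2.47 (adjusted p = 0.00203). It was higher in 4 of 4 NS mice too, at 2.29 (SE 1.05, adjusted p = 0.541). *Snap25*, the SNARE protein in the complex that Stxbp6 joins, was at -0.64 (SE 0.24, adjusted p = 0.135) in FC and lower in 9 of 12 mice. It was higher in dVenus+ cells of 0 of 4 NS mice, at -1.32 (SE 0.49, adjusted p = 0.484, edgeR). In HC it was higher in 0 of 3, at -2.32 (SE 0.58, adjusted p = 0.606, edgeR). Of all genes tested, 7.66% in NS and 12.3% in HC were lower in every mouse.

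Some transcripts of the nucleus and of other cells also differed between dVenus+ and dVenus- cells, in both directions. Whether they varied together with the members was not tested. *Malat1*, a long noncoding RNA kept in the nucleus, rose in dVenus+ cells of FC mice by 1.53 (SE 0.25, adjusted p = 0.000451) and of NS mice by 1.81 (SE 0.24, adjusted p = 4.72e-05, edgeR), and stood at 2.66 (SE 0.57, adjusted p = 0.606) in HC. The summed level of 6 nuclear retained RNAs was higher after TMM scaling in the dVenus+ library of all mice, while without it *Malat1*, the most abundant of them, was lower there in 1 of 12 FC and 1 of 4 NS mice. The sum had ranges of 19416 to 78515 CPM in FC dVenus+ and 4323 to 44045 CPM in FC dVenus- libraries. *Snhg11* rose with *Malat1* in FC at 1.59 (SE 0.43, adjusted p = 0.0291), whereas *Miat*, also nuclear, fell at -2.29 (SE 0.55, adjusted p = 0.0133). By the older method *Malat1* was called in FC (adjusted p = 0.0149) and not in NS (adjusted p = 0.139), and *Snhg11* and *Miat* were not called. The call of *Malat1* in NS was also lost without mouse 18 (adjusted p = 0.510) and without mouse 20 (adjusted p = 0.563). Without mouse 5, *Malat1* (1.31) and *Miat* (-2.06) stayed called in FC and *Snhg11* was lost (adjusted p = 0.0661). With the *Malat1* level as a covariate, edgeR called 47 of the 9709 genes tested in FC, against 424 without it, and 0 of the 9 members. *C1ql2* was then at -1.46 (adjusted p = 0.397), *Stxbp6* at -1.70 (adjusted p = 0.180) and *Neurod1* at -2.54 (adjusted p = 0.279). Without the covariate these log2 fold changes were -2.02, -1.36 and -2.34. The covariate was *Malat1* without TMM scaling, lower in dVenus+ cells of only 1 of 12 FC mice, so it overlaps with the comparison itself. The lost calls therefore cannot tell a part of nuclear RNA from a loss of precision.

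Of 6 microglial genes, 4 were tested in FC and 2 were called higher in dVenus+ cells. These were *Csf1r*, at 4.51 (SE 1.13, adjusted p = 0.0187), and *C1qa*, at 4.00 (SE 1.14, adjusted p = 0.0379), both higher in 10 of 12 mice, and neither was called by the older method. Without mouse 5 *C1qa* was called at 4.45 (adjusted p = 0.00932) and *Csf1r* was under the filter. The summed microglial level ran from 12.0 to 1086 CPM in FC dVenus+ and from 0.677 to 314 CPM in FC dVenus- libraries, and none of the 6 genes was at 0 throughout either group. Of 6 interneuron genes, 3 were tested in FC and 1 was called lower, beside 2.85% of all genes. This was *Gad1*, the GABA-synthesizing enzyme that granule cells also express, at -2.03 (SE 0.58, adjusted p = 0.0400, edgeR). It averaged 32.8 ± 27.5 CPM in dVenus+ and 228 ± 472 CPM in dVenus- libraries (SD, n = 12). It was not called by the older method or without mouse 5, where the adjusted p was 0.0517. *Gad2* had the other sign, at 0.39 (SE 0.89, adjusted p = 0.875), and was higher in dVenus+ cells of 7 of 12 FC mice. The summed interneuron level ran from 15.2 to 404 CPM in dVenus+ and from 29.5 to 2484 CPM in dVenus- libraries. The 2484 CPM were those of mouse 10, against a median of 139 CPM over the FC dVenus- libraries. No astrocyte, oligodendrocyte or pyramidal and mossy cell gene was called in FC among the 4, 3 and 3 tested. Their summed levels were 45.4 to 1554, 137 to 2999 and 18.5 to 412 CPM in FC dVenus+ and 163 to 2816, 204 to 4365 and 39.7 to 300 CPM in FC dVenus- libraries. In HC the astrocyte sum was 1566 to 1720 CPM in dVenus+ and 572 to 844 CPM in dVenus- libraries. It was larger in the dVenus+ library of 3 of 3 HC and 2 of 4 NS mice. For the microglial sum this held in 4 of 4 NS and 2 of 3 HC mice, and for the oligodendrocyte sum in 2 of 4 and 1 of 3. The NS microglial medians were 295 and 22.4 CPM in dVenus+ and dVenus- libraries. No gene of these lists was called by edgeR in NS or HC. The 2 oligodendrocyte precursor and 3 endothelial genes were under the filter in FC, at up to 83.0 and 4.64 CPM. The part of nuclear RNA or of other cells in the differences of the members was not tested.

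As a description over the 38 libraries and the 9 members other than *Igfbpl1*, the rank correlation (Spearman) of log2(CPM + 1) between members had a median of 0.44 among the 15 pairs of mature markers, 0.40 among the 3 pairs of immature markers and 0.40 among the 18 mixed pairs. The points share library, mouse and depth, and pool run series and training histories that cannot be told apart. The genes most like *C1ql2* among 11263 were *Ncdn*, *Nell2* and *Phyhip*, with rho of 0.91, 0.89 and 0.88. For *Stxbp6* they were *Nmnat2* at 0.83, *Vstm2a* at 0.81 and *Atp6v1e1* at 0.81, and for *Neurod1* *Mmd2* at 0.79, *Arsb* at 0.78 and *Hmgn2* at 0.77. The pair of members most alike was *Tdo2* and *Dcx*, at 0.75, both of which had low levels in all NS and HC libraries. *Prox1* was most like *Pqbp1* at 0.75, *Rbbp4* at 0.74 and *Sesn1* at 0.74, *Sox11* like *Dcaf17* at 0.78, *Irf2bp1* at 0.71 and *Eef1b2* at 0.69, and *Dcx* like *Ep300* at 0.79, *Ttc21b* at 0.78 and *Man2c1* at 0.75. Likeness was lowest for *C1ql3*, with *Ptk2b* at 0.71, *Lgi3* at 0.69 and *Jph4* at 0.69, and *Dsp*, with *Camkk2* at 0.69, *Mgat5b* at 0.66 and *Mmp17* at 0.64. After *Dcx*, *Tdo2* was most like *Psrc1* at 0.74 and *Slc18b1* at 0.71.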

How the data were processed

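Each of the 38 libraries was made by Smart-seq2 from a pool of 10 granule cells of 1 mouse, dVenus+ or dVenus-, and read as single 50-base reads. The deposited values are counts: the authors aligned the reads to mm10 with TopHat2 2.0.13 and counted unique alignments on NCBI transcripts with HTSeq 0.6.0, without normalization. Each library lists 23420 genes and 5 entries that name no gene, which were left out, with 16.4% to 59.7% of the uniquely aligned reads outside genes. The depth of 1352288 to 18394761 counts sets the precision of low genes. A further table of 11802 genes held the same counts and served only an alternative. Libraries were grouped by title, and the 2 libraries of a mouse paired as they come from 1 animal (median correlation of their deviations 0.04 in FC, -0.02 in NS and 0.02 in HC).

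Counts were tested with edgeR 4.0.16 in R 4.3.3 (TMM, glmQLFit and glmQLFTest, two-sided), 1 fit for each of FC, NS and HC, keeping genes that reached 10 counts in 12, 4 and 3 libraries or more, and library sizes were the counts on those genes. The interaction fit kept those that reached 10 counts in 3 libraries or more. The alternatives were other scaling, filters, tools, covariates and subsets of mice, DESeq2 1.42.0 among them. The newer quasi-likelihood method (legacy = FALSE) was made the main one after the results of both methods had been seen, to follow an earlier processing of these data, although the default of this version is the older method. The scripts were tested on simulated counts. The members and lists were chosen with earlier results of these data known. Named beside the members are genes of other lists that were called, some of the 2 with the highest mean CPM of each list, and the 3 genes most like each member. Positions and windows are those of RefSeq on GRCm38.p6, the build of mm10, and exon lengths those of GENCODE vM21.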

Additional observations from a re-analysis of the deposited data

Results flagged for a closer look

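In groups of 4 libraries, a library was singled out where its gap to the nearest of the others exceeded the 95% limit of Dixon's test, which applies here to the NS groups only. Of 18 such groups of member values, 5 held a library of this kind. Chance flags about 1 in 20 where values are normally distributed, which skewed CPM are not, so the number of such groups says little. *C1ql3* in NS dVenus- cells was 204 normalized CPM in mouse 19, against 26.3 to 38.6 CPM in the other 3. *Dsp* in NS dVenus+ cells was 106 CPM in mouse 20, against 0 to 11.9 CPM. *Stxbp6* in NS dVenus- cells was 653 CPM in mouse 18, against 162 to 231 CPM. *Tdo2* in NS dVenus- cells was 0.401 CPM in mouse 21, from 5 counts, and 0 in the others, and *Igfbpl1* in NS dVenus+ cells was 0.298 CPM in mouse 19, from 1 count, and 0 in the others; with 3 values at 0 any count meets this limit. Different mice were concerned, and the cause was not tested.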

How the results depend on the processing

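In FC, 424 genes and 3 members were called. The alternatives that moved these counts gave 1635 genes and 4 members with DESeq2's Wald test, 137 and 0 with the older quasi-likelihood method, 15 and 0 within mice 9 to 14, 13 and 0 within mice 4 to 7, 0 and 0 within mice 1 and 3, 47 and 0 with *Malat1* as a covariate and 207 and 1 without mice that had a library under 5000000 counts (the last 2 were chosen after seeing the data, as was the newer quasi-likelihood method as the one reported, the older being the default of this version). The members called were 1 without a count filter, 1 with genes detected as a covariate and 1 without mice 4 and 7, and *C1ql2* was that 1 in each. With the mouse not in the fit as a block, 490 genes and 1 member were called in FC, 14 genes in NS and 0 in HC, and the *Sox11* value in HC turned to -0.32. The fits without 1 mouse called 289 to 408 genes and 1 to 3 members in FC, and 0 to 2 genes in NS. In NS, 4 genes were called, against 11 with DESeq2's size factors, 2 without a filter, 2 over the genes of the authors' table, 666 and 1 member (*Prox1*) with DESeq2, 0 with the older method and 1 with genes detected. In HC, 0 genes were called, against 625 with DESeq2 and 2 with the older method. The interaction calls of members were 0 in every fit. Over the alternatives, *C1ql2* was called in FC in 20 of 25, *Stxbp6* in 5 and *Neurod1* in 6, and all 3 stayed below 0 in 25 of 25. Signs turned for *Prox1* in FC at 0.067 within mice 9 to 14 and 0.24 with *Malat1*, for *Snhg11* in FC at -0.28 within mice 1 and 3, and for *Dsp* in NS at -0.016 without a filter, -0.24 with DESeq2 and -0.29 with the older method. Leaving out each mouse in turn gave both signs in NS for *Dsp* (-1.67 to 1.48), *Dcx* (-0.18 to 1.54) and *Sox11* (-0.54 to 0.96), and in HC for *C1ql3* (-1.36 to 0.17), *Dsp* (-3.67 to 0.25), *Stxbp6* (-1.60 to 1.10) and *Sox11* (-0.26 to 0.55). With genes detected as a covariate in HC, which leaves 1 residual degree of freedom, *C1ql3* was 10.91 and *Sox11* -2.06. Scaling by DESeq2's size factors moved the median of all genes in FC from -0.11 to -0.07. The causes were not tested.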
